A study of Mus musculus with 24 samples.

Results

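Natural killer (NK) cells from the spleens of mice bearing RMA tumors, taken 4 days after injection, were compared with NK cells from mice bearing RMA-KR tumors, taken 7 days after injection. The libraries were chosen by their labels, which call both stages intermediate: 3 RMA libraries and 5 RMA-KR libraries, 8 of the 24 libraries in the series. RMA is a mouse T cell lymphoma line. RMA-KR was made from it by disrupting B2m with CRISPR-Cas9, which removes surface MHC-I, and by adding Rae1-β, a ligand of the activating receptor NKG2D. Rae1-β was added with a lentivirus that also encodes ZsGreen. The RMA cells expressed ZsGreen too, and the paper's methods name an empty form of the virus beside the one with Rae1-β. Transduced cells were sorted and subcloned. Tumor cells were injected into the tail vein of wild-type C57BL/6J mice, and the control mice were not treated. NK cells were sorted as live cells that carried NK1.1 or NKp46 and lacked T cell and B cell surface proteins, and polyadenylated RNA was sequenced. The comparison asks how NK cells differ between a lymphoma they can recognize and the RMA line at the middle stage of growth. The tumor and the day differ together, so their parts in any difference cannot be told apart.

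NK cells kill cells that have lost MHC-I or that display stress ligands such as those of NKG2D, by releasing granules that hold perforin and granzymes. In the spleen of an untreated mouse most of them are not dividing; type I interferon and IL-15 arm them, raise granzyme B and bring them into the cell cycle. A cell that enters the cycle first switches on genes of DNA replication and later, under promoters that often carry a CCAAT box and a CHR element, the genes of G2 and mitosis.

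Total counts were 11817151, 10955743 and 9212393 in RMA 1, 2 and 3, and 14824109, 11466996, 8303060, 8131589 and 9626213 in RMA-KR 1 to 5. Levels are CPM, counts scaled to a library of 1e6 counts, normalized for library composition, each given for single libraries or as a mean ± SD over the 3 RMA and the 5 RMA-KR libraries, and a floor of 3 counts lay between 0.208 and 0.344 CPM in these 8 libraries. Floors cover counting error only. Differences are log2 values of RMA-KR minus RMA with the standard error (SE) of the fit, so that a negative value means a lower level in RMA-KR at day 7. Of 45237 genes listed, 17097 passed the filter on low counts and were tested with edgeR. A gene was called when its adjusted p was under 0.05 and its fold difference above 2.

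The RMA-KR libraries fell into 2 sorts. Fos, an immediate early transcription factor gene induced within minutes of stimulation, was at 940, 1066 and 1163 CPM in RMA 1 to 3, at 975 and 986 CPM in RMA-KR 1 and 2, and at 88.3, 67.3 and 75.8 CPM in RMA-KR 3, 4 and 5. Jun, its partner in AP-1, was at 483, 475 and 527 CPM in the RMA libraries and at 926, 1042, 91.2, 155 and 101 CPM in RMA-KR 1 to 5, and the phosphatase gene Dusp1 was at 764, 788 and 762 CPM against 1508, 1602, 144, 156 and 130 CPM. RMA-KR 3, 4 and 5 were low in all 3 genes, as was Control 4, with 83.9 CPM of Fos, while RMA-KR 1 and 2 lay above the RMA libraries for Jun and Dusp1. The same 3 RMA-KR libraries had counts for more genes, 24676, 26285 and 24621, against 16651 and 15922 in RMA-KR 1 and 2 and 15878, 18247 and 15289 in RMA 1 to 3. What set the 3 libraries apart was not tested, and the main results are given with and without them.

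**Figure D1:**
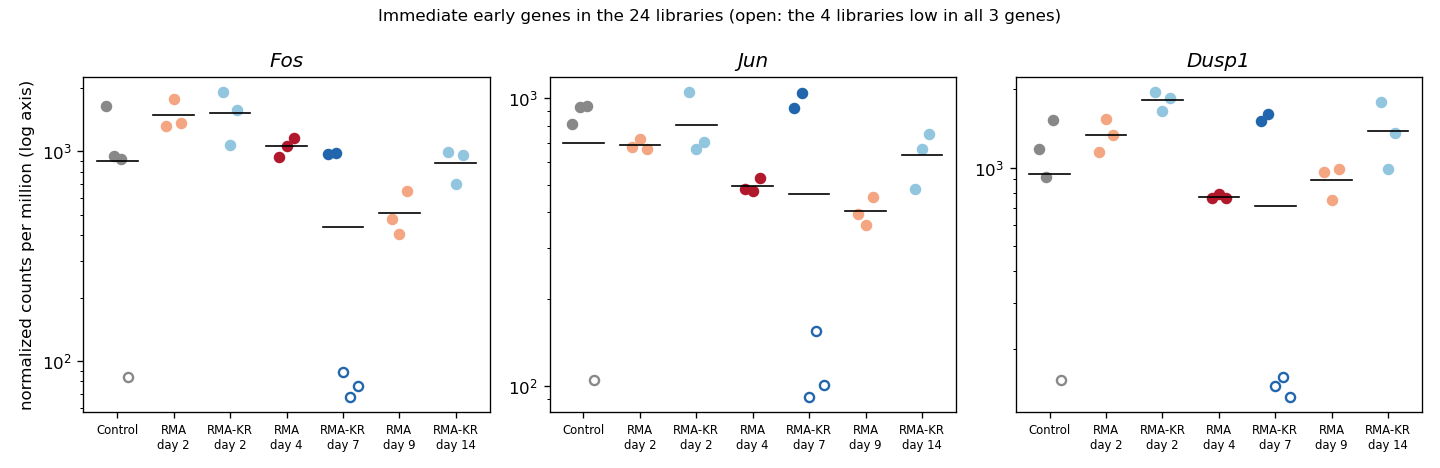
Normalized CPM on a log axis of Fos, Jun and Dusp1 in each of the 24 libraries by group, with a line at each group's mean. Open points are RMA-KR intermediate 3, 4 and 5 and Control 4, which lie below the other libraries in all 3 panels, for Fos at 67.3 to 88.3 CPM.

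The NK cell label held in all 8 libraries. The summed level of 10 NK cell markers was 29600, 25120 and 29060 CPM in RMA 1 to 3 and 31440, 33170, 20360, 20580 and 19220 CPM in RMA-KR 1 to 5, so that RMA-KR 3, 4 and 5 were lowest; Gzma was the most abundant of the 10. Ncr1, which encodes NKp46, was at 2785, 2698 and 2843 CPM in RMA and at 3781, 4040, 3346, 3285 and 2930 CPM in RMA-KR. Of the 10 markers, 0 were called by edgeR, with 3 at an unadjusted p under 0.05, and 0 by DESeq2. Markers of other cells were far lower in sum. The 16 T cell and T lymphoma markers summed to 502, 476 and 440 CPM in RMA and 540, 598, 600, 641 and 601 CPM in RMA-KR; Trbc1, which has a near-identical copy beside it, made up 196 and 288 CPM of these sums, while Cd3e, which defines T cells and would mark RMA cells, averaged 0.700 and 1.17 CPM. Other CD3 genes were higher in the libraries low in Fos: Cd3d was at 4.85, 5.39 and 5.04 CPM in RMA and at 4.44, 2.97, 21.0, 30.6 and 29.7 CPM in RMA-KR, and Cd3g at 13.1, 6.67 and 4.93 CPM against 7.7, 10.9, 23.1, 24.2 and 18.9 CPM. The 14 granulocyte and mast cell markers summed to 0.627 and 2.55 CPM on average, with S100a9, Mpo, Elane, Camp, Cxcr2 and Mcpt8 at 0. The 13 B cell markers summed to 343, 332 and 315 CPM in RMA and 296, 366, 394, 528 and 439 CPM in RMA-KR, mostly from Ighm, while Cd22 was at 2.82, 7.75 and 0.229 CPM against 0, 13.8, 46.2, 46.6 and 33.7 CPM, again highest in RMA-KR 3, 4 and 5. The 16 macrophage and monocyte markers averaged 20.1 and 26.3 CPM in sum, with Cd68 the most abundant at 16.91 and 12.95 CPM. Plasma cell markers summed to 429 and 355 CPM, mainly Xbp1, with Mzb1 and Tnfrsf17 at 0. The 12 dendritic cell markers summed to 133, 123 and 135 CPM in RMA, mainly Bst2, which is also induced by interferon, and to 77.2, 32.8, 169, 240 and 221 CPM in RMA-KR 1 to 5. Bst2 averaged 34.5 CPM in RMA-KR, and RMA-KR 3, 4 and 5 were highest through Cd74, at 48.5, 78.7 and 66.6 CPM against 4.1 and 2.16 CPM in RMA-KR 1 and 2, and through genes of MHC-II. Of the 12, Bst2 was called, and the part of the markers of T, B and dendritic cells in the results was not tested. The 8 markers of type 1 innate lymphoid cells (ILC1), which the sort would keep, summed to 63.5, 40.8 and 53.5 CPM in RMA, 63.9 and 39.1 CPM in RMA-KR 1 and 2, and 243, 345 and 274 CPM in RMA-KR 3, 4 and 5, where the most abundant on average, Il7r, made up 66.8, 133 and 80.6 CPM. Of the 8, 0 were called by edgeR, with 2 at an unadjusted p under 0.05, 0 by DESeq2 with default settings, 2 by DESeq2 with betaPrior and 1 by limma voom, and their part in the results was not tested.

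At the intermediate stage NK cells from RMA-bearing mice carried a program of G2 and mitosis that was near control levels in the RMA-KR group. Of 17097 genes tested, 86 were called (0.503%): 82 were lower in RMA-KR (0.48%) and 4 were higher (0.0234%). The 82 included 28 of the 50 genes on a list of G2 and M phase genes, 3 of 40 on an S phase list and 5 of 45 on a type I interferon-stimulated list, together with granzyme B. By the gene ontology terms in the deposited annotation, 54 of the 82 lower genes (65.9%) carried a cell cycle term, against 7.79% of all genes tested, and 22 (26.8%) a cytoskeleton term, against 5.18%. Over all genes tested the median difference was 0.23, with 10673 genes above 0 and 6368 below. The balance of called genes depended on the tool: DESeq2 with default settings called 134 lower and 163 higher, and limma voom 305 lower and 327 higher. In bulk RNA, fewer cells in the cycle and less of each transcript per cell cannot be told apart.

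**Figure D2:**
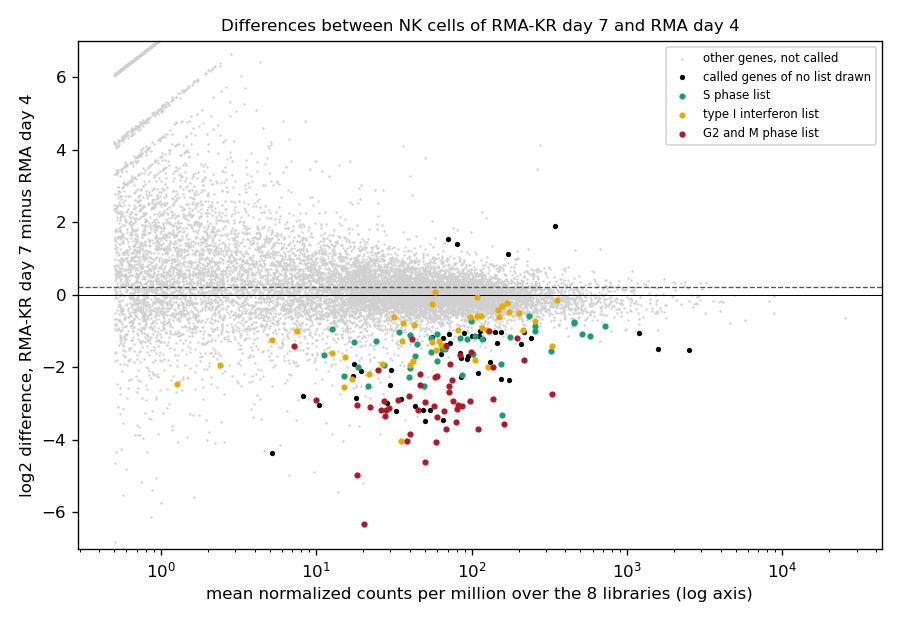
Each point is a gene: mean normalized CPM over the 8 libraries on a log axis against the log2 difference of RMA-KR day 7 minus RMA day 4, with a dashed line at the median over all genes, 0.23. Genes under 0.5 CPM are not drawn and the vertical axis stops at 7 either side of 0; the 50 G2 and M phase genes all lie below 0.

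The count of called genes moved with single libraries and with the 3 libraries low in Fos. It was 45, 47 and 42 without RMA 1, 2 or 3, and 45, 54, 34 and 55 without RMA-KR 1, 2, 4 or 5, and 70 without RMA-KR 3. The low-count filter was run anew in each fit. It passed 20195, 20209 and 20280 genes without RMA 1, 2 or 3, and 16490 to 17006 without an RMA-KR library. The part of this change in the counts was not tested. Without RMA-KR 3, 4 and 5 it was 64, of which 46 were lower and 18 higher and 32 were among the 86, and the median over all genes was 0.00. Without RMA-KR 1 and 2 it was 89, of which 39 were among the 86. All 86 genes kept their sign in both of these fits, and 18 of them were called in both, among them Plk1, Kif11, Kif22, Rrm2, Trim30a, Capg and Cd7. These 2 fits were chosen after the libraries had been seen to stand apart.

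The G2 and M phase list had the lowest median of the lists. All 50 of its genes were lower in RMA-KR, with a median difference of -2.92 against 0.23 over all genes, and in all 50 the libraries of the groups did not overlap, against 5.82% of all genes tested that lay wholly lower in RMA-KR. Plk1 encodes the kinase that drives entry into and passage through mitosis. It was at 122, 156 and 150 CPM in RMA 1 to 3 and at 9.86, 12.6, 2.18, 8.42 and 9.52 CPM in RMA-KR 1 to 5, a 16.7-fold higher level in RMA (log2 difference -4.06 ± 0.54 SE, adjusted p = 0.000335). All 5 RMA-KR libraries were far below the lowest RMA library, and their values lay within the range of the 4 control libraries, 1.83 to 13.7 CPM. Kif11, the motor that separates the spindle poles, was at 208, 285 and 289 CPM against 18.7, 36.4, 9.64, 13.9 and 20.5 CPM (-3.71 ± 0.47, adjusted p = 0.000273). Kif22, a motor bound to chromosome arms, was at 154, 187 and 205 CPM against 18.1, 14.5, 18.7, 26.6 and 23.9 CPM (-3.16 ± 0.37, adjusted p = 0.000126, the smallest of all genes, shared with Trim30a). For Kif11 the libraries low in Fos were mixed among the other RMA-KR libraries, and for Kif22 all 3 lay above RMA-KR 1 and 2, while every RMA-KR library was far below RMA for both motors. Top2a, the topoisomerase that untangles sister chromatids, was at 572, 817 and 718 CPM against 72.8, 115, 151, 80.2 and 109 CPM (-2.73 ± 0.45, adjusted p = 0.00233); without RMA-KR 3, 4 and 5 its adjusted p was 0.058. On mm10 the genes lie at 122159439 to 122169873 on chromosome 7 (Plk1), 37376403 to 37421859 on chromosome 19 (Kif11), 127027729 to 127042471 on chromosome 7 (Kif22) and 98992943 to 99024189 on chromosome 11 (Top2a).

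Among the other G2 and M phase genes, Anln, a scaffold of the cleavage furrow, was at 73.0, 52.8 and 33.1 CPM in RMA and at 0, 0.180, 2.29, 0.228 and 0.687 CPM in RMA-KR (-6.32 ± 1.01, adjusted p = 0.00208). RMA-KR 1, 2 and 4 lay under the floor of 3 counts for Anln. Ube2c, the ubiquitin-conjugating enzyme of the anaphase-promoting complex, was at 107, 140 and 130 CPM against 7.36, 8.82, 5.05, 1.71 and 2.36 CPM (-4.62 ± 0.80, adjusted p = 0.00384), and lost the call without RMA-KR 3, 4 and 5 (adjusted p = 0.153). Also lower, and called without each of the 8 libraries in turn, were Birc5 (-3.36), Tacc3 (-2.92), Mad2l1 (-1.90), Racgap1 (-1.81), Incenp (-1.67), Smc2 (-1.57) and Smc4 (-1.18), and from outside the list the kinetochore gene Spc24 (-3.48) and Cdca8 (-3.45), a subunit of the chromosomal passenger complex. Of these, Birc5, Racgap1, Incenp and Spc24 lost the call without RMA-KR 3, 4 and 5 (adjusted p = 0.11, 0.104, 0.0627 and 0.111) and Cdca8 without RMA-KR 1 and 2 (adjusted p = 0.0588). Other large differences rested on more of the libraries: Ttk (-4.97), Nuf2 (-3.85), Tpx2 (-3.70) and Ccna2 (-3.55) lost the call without any 1 of 5, 8, 3 and 6 of the 8 libraries, with adjusted p values up to 0.0956, 0.136, 0.0726 and 0.111. The histone gene Hist1h2ab (-4.36), whose reads are hard to tell from those of near-identical copies, lost it without 7 of the 8, with an adjusted p up to 0.122. Mki67, the gene of the Ki67 protein that the study stained for, was at 267, 358 and 266 CPM against 22.8, 65.2, 77.3, 14.8 and 22.4 CPM and was not called (-2.88 ± 0.77, adjusted p = 0.105), although its groups did not overlap. Of the 50 G2 and M phase genes, 28 were called with all 8 libraries and 13 to 20 when 1 library was left out, the fewest without RMA-KR 4; 10 were called without RMA-KR 3, 4 and 5 (median -2.84) and 17 without RMA-KR 1 and 2 (median -2.97), and all 50 stayed below 0 each time.

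**Figure D3:**
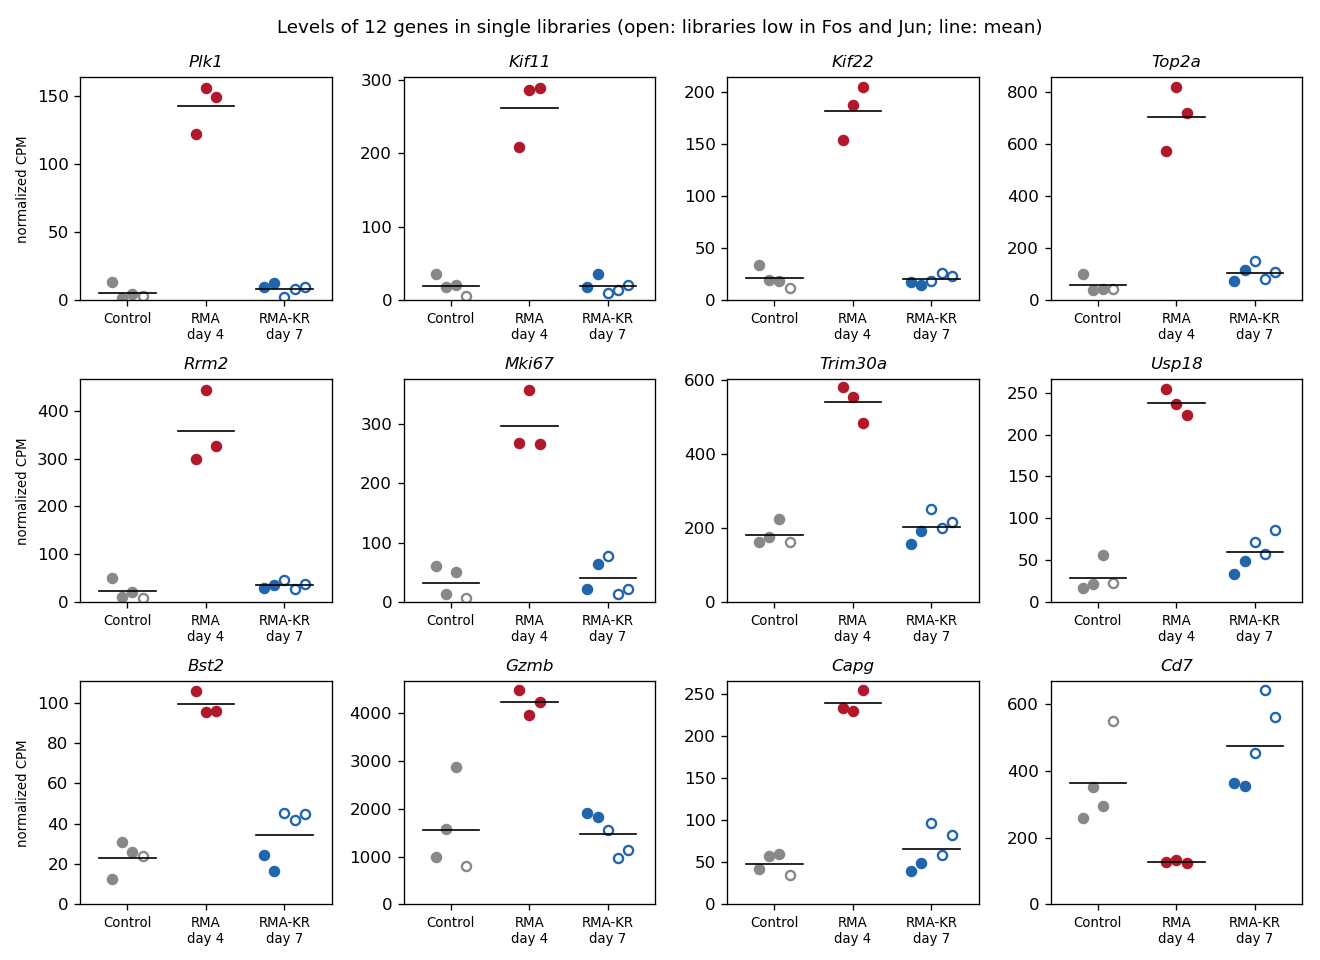
Normalized CPM of 12 genes in each Control, RMA day 4 and RMA-KR day 7 library on linear axes from 0, with a line at each group's mean and open points for the libraries low in Fos and Jun. Plk1 is at 122 to 156 CPM in RMA and at 2.18 to 12.6 CPM in RMA-KR, and Cd7 runs the other way, at 125 to 132 CPM against 356 to 644 CPM.

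The promoters of 4 of these genes are shown because the list moved together and its genes are known to share 2 elements: the CCAAT box (letters CCAAT) and the CHR element (letters TTTGAA). Each sequence runs 5′ to 3′ on the gene's strand from 250 bases before to 50 bases after the start in RefSeq GRCm38.p6, with matches to either motif on either strand in capitals. Plk1 lies at chr7:122159185-122159484 (plus strand), Kif11 at chr19:37376132-37376431 (plus), Kif22 at chr7:127042371-127042670 (minus) and Top2a at chr11:99024140-99024439 (minus).
Plk1: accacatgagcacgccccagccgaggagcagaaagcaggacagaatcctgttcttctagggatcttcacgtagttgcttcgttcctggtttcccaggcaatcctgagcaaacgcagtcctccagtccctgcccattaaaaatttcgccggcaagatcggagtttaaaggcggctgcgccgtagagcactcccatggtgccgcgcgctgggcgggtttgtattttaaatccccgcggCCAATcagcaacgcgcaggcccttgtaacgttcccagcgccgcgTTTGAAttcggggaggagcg
Kif11: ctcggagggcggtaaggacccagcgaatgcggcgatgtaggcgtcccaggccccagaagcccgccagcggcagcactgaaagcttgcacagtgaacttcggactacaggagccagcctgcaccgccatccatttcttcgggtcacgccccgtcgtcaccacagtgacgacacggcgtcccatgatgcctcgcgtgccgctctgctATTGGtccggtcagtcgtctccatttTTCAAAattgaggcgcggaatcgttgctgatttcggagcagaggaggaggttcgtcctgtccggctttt
Kif22: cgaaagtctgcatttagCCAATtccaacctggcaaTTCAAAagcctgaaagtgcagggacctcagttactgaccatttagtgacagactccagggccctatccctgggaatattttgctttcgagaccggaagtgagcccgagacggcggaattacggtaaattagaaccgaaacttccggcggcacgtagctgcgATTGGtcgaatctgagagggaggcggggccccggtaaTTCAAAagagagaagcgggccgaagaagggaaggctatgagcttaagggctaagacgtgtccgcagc
Top2a: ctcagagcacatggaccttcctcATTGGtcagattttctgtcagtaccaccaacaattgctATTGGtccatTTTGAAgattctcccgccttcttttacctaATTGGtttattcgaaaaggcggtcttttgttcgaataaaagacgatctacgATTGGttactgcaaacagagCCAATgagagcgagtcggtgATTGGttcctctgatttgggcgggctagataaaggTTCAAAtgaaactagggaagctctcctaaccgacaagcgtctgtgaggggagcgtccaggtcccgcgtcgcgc
Plk1 and Kif11 each held 1 CCAAT match and 1 CHR match, Kif22 held 2 of each, and Top2a held 6 CCAAT and 2 CHR matches. Promoters were found for 41 of the 50 G2 and M phase genes, with 43 promoters in all. The CHR letters were in 31 of the 43 (72.1%), against 17.9% of all 32851 promoters and 13.4% of the 14502 promoters of genes tested. They were in 4 of 38 (10.5%) promoters of 33 of the 40 S phase genes. The CCAAT letters were in 33 of the 43 (76.7%), against 37.4% of all promoters, 37.7% of those of genes tested and 57.9% of those of the S phase genes. A match describes the letters in this window and says nothing of whether a factor binds there.

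Of 40 genes on the S phase list, edgeR called 3 (7.5%), all lower in RMA-KR, against 0.48% of all genes tested. With 1 library left out the count was 1 to 3. DESeq2 with default settings called 7 of the 40, limma voom 22, and edgeR with no low-count filter 23. Over all genes tested these fits called 297 of 17097, 632 of 17097 and 272 of 45237, in either direction. All 40 were below 0, with a median of -1.29, and 29 lay wholly lower in RMA-KR, against 5.82% of all genes tested. Rrm2, the regulated subunit of ribonucleotide reductase, was at 298, 444 and 327 CPM in RMA and at 30.5, 35.6, 47.7, 27.2 and 38.2 CPM in RMA-KR (-3.31 ± 0.48, adjusted p = 0.00082). For Rrm2 the 5 RMA-KR libraries were alike and far below all RMA libraries. The other genes called by edgeR were Rrm1 (-1.56, adjusted p = 0.0167) and Pcna (-1.16, adjusted p = 0.0357). They lost the call without 5 and 7 of the 8 libraries, with adjusted p up to 0.0948 and 0.136. Mean log2 levels (CPM plus 1) over the S phase list were 6.75, 7.31 and 6.93 in RMA 1 to 3, and 4.60, 4.57, 6.25, 5.28 and 5.91 in RMA-KR 1 to 5. RMA-KR 3, 4 and 5 thus lay between the RMA libraries and RMA-KR 1 and 2, whereas over the G2 and M phase list the 5 libraries were at 3.9, 4.01, 4.25, 3.55 and 4.05 with no such split, against 6.62, 6.99 and 6.91 in RMA. Without RMA-KR 3, 4 and 5 the S phase median was -2.24 with 7 genes called, and without RMA-KR 1 and 2 it was -1.0 with 2 called.

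Of 45 genes tested on the type I interferon-stimulated list, edgeR called 5 (11.1%), all lower in RMA-KR, against 0.48% of all genes tested. With 1 library left out the count was 2 to 5. DESeq2 with default settings called 6 of the 45, and limma voom 16, against 297 and 632 of all 17097 genes tested. Of the 45, 44 were below 0, 26 lay wholly lower in RMA-KR, against 5.82% of all genes tested, and the median was -1.0, or -1.12 when a group wholly under the floor was given the level of the floor. Trim30a (chromosome 7, 104409025 to 104465193 on mm10), an interferon-induced TRIM protein gene with close relatives beside it, was at 581, 555 and 484 CPM in RMA and at 157, 192, 253, 200 and 216 CPM in RMA-KR (-1.41 ± 0.17, adjusted p = 0.000126). The RMA-KR values of Trim30a lay near those of the control libraries, 162 to 224 CPM. Usp18, which removes ISG15 from proteins and damps the interferon receptor, was at 254, 236 and 223 CPM against 33.6, 49.6, 72.2, 58.0 and 86.7 CPM (-1.99 ± 0.37, adjusted p = 0.0076). Bst2, the membrane protein tetherin, was at 106, 95.4 and 96.1 CPM against 24.5, 16.5, 45.1, 41.7 and 44.6 CPM (-1.52 ± 0.35, adjusted p = 0.0437). For Usp18 and Bst2, RMA-KR 1 and 2 were lower than RMA-KR 3, 4 and 5. Bst2 lost the call without any 1 of the 8 libraries, with an adjusted p up to 0.164. Ifi27l2a (-4.02, adjusted p = 0.0266) and Xaf1 (-1.28, adjusted p = 0.014) were the other members called by edgeR. Each lost the call without 5 of the 8, with an adjusted p up to 0.165 and 0.0728. Without RMA-KR 3, 4 and 5 the list's median was -1.44 with 5 genes called, and without RMA-KR 1 and 2 it was -0.80 with 2 called, Usp18 being no longer among them (adjusted p = 0.0593). The interferon-gamma list had a median of -0.16 over 23 genes, with 0 called by edgeR, 8 at an unadjusted p under 0.05, 0 called by DESeq2 with default settings, 1 by DESeq2 with betaPrior and 4 by limma voom.

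The promoters of Trim30a and Bst2 are shown for the interferon-stimulated response element, searched as the letters GAAANNGAAA, on both strands, at chr7:104465144-104465443 and chr8:71537423-71537722, both on the minus strand and on the same build.
Trim30a: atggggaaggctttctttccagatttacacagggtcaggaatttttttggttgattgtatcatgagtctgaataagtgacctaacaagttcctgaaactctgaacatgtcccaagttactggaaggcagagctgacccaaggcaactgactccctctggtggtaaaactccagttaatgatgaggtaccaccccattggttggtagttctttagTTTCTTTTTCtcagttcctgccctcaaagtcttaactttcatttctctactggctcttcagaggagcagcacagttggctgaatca
Bst2: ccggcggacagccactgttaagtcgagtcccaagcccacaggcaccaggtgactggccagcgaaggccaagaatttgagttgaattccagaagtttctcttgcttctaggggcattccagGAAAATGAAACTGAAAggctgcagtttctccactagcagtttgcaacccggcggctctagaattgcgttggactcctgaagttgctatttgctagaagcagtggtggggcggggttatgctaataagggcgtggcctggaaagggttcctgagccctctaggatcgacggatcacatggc
Trim30a held 1 match, 36 bases before the start, and Bst2 held 2 that share their middle GAAA. The motif was in 3.44% of all promoters and 3.11% of those of genes tested. It was in 18 of 39 (46.2%) promoters of the type I interferon-stimulated list.

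Among genes of the killing machinery, granzyme B was lower in RMA-KR and perforin was not called. Gzmb (chromosome 14, 56258838 to 56262260), granzyme B, the protease that starts apoptosis in target cells, was at 4490, 3973 and 4245 CPM in RMA and at 1922, 1832, 1563, 969 and 1136 CPM in RMA-KR (-1.51 ± 0.28, adjusted p = 0.00771). Every RMA library lay above every RMA-KR library, and RMA-KR 4 and 5 were lowest. Gzmb was not called without RMA-KR 3, 4 and 5 (-1.14, adjusted p = 0.217). Prf1, perforin, was at 5612, 6113 and 6809 CPM against 4639, 5271, 2933, 2811 and 2514 CPM and was not called (-0.77 ± 0.21, adjusted p = 0.121). Gzma, granzyme A, was at 12790, 8493 and 10910 CPM against 11570, 12470, 5031, 4757 and 4445 CPM, so that RMA-KR 1 and 2 lay within the RMA range. Of 23 genes on the cytotoxic granule list, 19 were below 0 with a median of -0.43, and edgeR called Gzmb alone. DESeq2 with default settings called 1 of the 23, and limma voom 2, against 297 and 632 of all 17097 genes tested. The edgeR call was 4.35% of the list, against 0.503% of all genes tested.

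Of 30 genes on a list named actin and adhesion, 25 were below 0 and the median was -0.34. The list also holds Lgals3, S100a6 and Anxa5, of the galectin, S100 and annexin families, so its shares are not those of actin genes alone. By edgeR 4 were called (13.3%), all lower in RMA-KR, against 0.48% of all genes tested. With 1 library left out the count was 2 to 5. Capg, which caps actin filaments, was at 232, 230 and 254 CPM in RMA and at 39.8, 49.6, 96.9, 58.8 and 82.4 CPM in RMA-KR (-1.87 ± 0.30, adjusted p = 0.00208). Lgals3, galectin-3, was at 114, 104 and 112 CPM against 35.1, 46.2, 35.7, 27.5 and 34.2 CPM (-1.62 ± 0.26, adjusted p = 0.0017), and was not called without RMA-KR 3, 4 and 5 (-1.41, adjusted p = 0.0896). In both genes the RMA libraries were alike and lay well above all 5 RMA-KR libraries. S100a6 (-1.37) and Anxa5 (-1.03) were the other members called. S100a6 lost the call without RMA 1 (adjusted p = 0.102) and without RMA-KR 3, 4 and 5 (adjusted p = 0.165), and Anxa5 without any 1 of 6 of the 8 libraries, with an adjusted p up to 0.227.

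4 genes were higher in RMA-KR. Cd7 (chromosome 11, 121036747 to 121039418), a surface glycoprotein of T and NK cells, was at 127, 132 and 125 CPM in RMA and at 364, 356, 453, 644 and 563 CPM in RMA-KR, a 3.72-fold higher level (1.89 ± 0.25, adjusted p = 0.000335). The lowest RMA-KR library was above every RMA library, and the control libraries, at 258 to 550 CPM, were also above them. Cd7 was called without RMA-KR 3, 4 and 5 (1.52, adjusted p = 0.017) and without RMA-KR 1 and 2 (2.11, adjusted p = 0.000929). Rnf167, an E3 ubiquitin ligase of endosomes and lysosomes, was at 81.3, 121 and 95.5 CPM against 256, 233, 173, 240 and 177 CPM (1.12 ± 0.20, adjusted p = 0.00587) and lost the call without RMA 1 or RMA 3, with an adjusted p up to 0.0871. The histone H3K4 demethylase gene Kdm5b (1.53, adjusted p = 0.0254) and the inositol hexakisphosphate kinase gene Ip6k1 (1.4, adjusted p = 0.0472) lost it without 6 and 7 of the 8, with an adjusted p up to 0.156 and 0.369. Without RMA-KR 1 and 2, Rnf167 was at 0.98, under the 2-fold limit, and Kdm5b and Ip6k1 both had an adjusted p of 0.0968. Next by p, with differences under the 2-fold limit and so not called, were Hdhd5 (0.86), Fam189b (0.89), Akap8l (0.96) and Stat4 (0.63), the transcription factor of IL-12 signals, all with groups that did not overlap, against 3.36% of all genes tested that lay wholly higher in RMA-KR.

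Receptors of NK cells gave no call in edgeR, in which 2427 of all 17097 genes tested had an unadjusted p under 0.05. Of 26 activating receptors and adaptors, with a median of 0.23, 0 were called by edgeR, 5 had an unadjusted p under 0.05 and 1 was called by DESeq2. The numbers were 0, 3 and 1 for 18 Ly49 and other MHC-I receptors (median 0.20) and 0, 2 and 2 for 15 checkpoint receptors (median 0.02), of which limma voom called 3. Klrk1, which encodes NKG2D, was at 1972, 1630 and 1650 CPM in RMA and at 2445, 3044, 1834, 1847 and 1779 CPM in RMA-KR (0.32 ± 0.17, adjusted p = 0.372). Its groups overlapped through RMA 1. Tigit was at 252, 329 and 334 CPM against 103, 105, 129, 120 and 155 CPM and was not called (-1.32 ± 0.34, adjusted p = 0.0851), although its groups did not overlap. Lag3 was at 81.8, 78.3 and 87.1 CPM against 11.7, 8.10, 44.2, 41.2 and 80.4 CPM (-1.15 ± 0.79, adjusted p = 0.506), and RMA-KR 5 lay within the RMA range. Tox, a transcription factor gene tied to T cell exhaustion, was at 51.2, 84.5 and 52.4 CPM against 91.1, 79.8, 100, 104 and 95.8 CPM (0.59 ± 0.21, adjusted p = 0.283). Of 32 maturation genes 22 were above 0 with a median of 0.30, and edgeR called Cd7 alone. DESeq2 with default settings called 4 of the 32, and limma voom 7. Over all 17097 genes tested edgeR called 86, DESeq2 with default settings 297 and limma voom 632.

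Some genes differed between the 2 sorts of RMA-KR library. Ifng was at 393, 337 and 374 CPM in RMA and at 360, 391, 93.9, 58.0 and 72.2 CPM in RMA-KR (-0.92 ± 0.49, adjusted p = 0.373). Ccl3 was at 1786, 1438 and 1670 CPM against 1985, 1918, 319, 237 and 258 CPM. Both were as high in RMA-KR 1 and 2 as in RMA and low in RMA-KR 3, 4 and 5, as in Control 4, at 59.3 and 164 CPM. Going the other way, Ltb, lymphotoxin beta, was at 26.3, 37.6 and 38.4 CPM in RMA, at 59.8 and 42.8 CPM in RMA-KR 1 and 2, and at 184, 322 and 216 CPM in RMA-KR 3, 4 and 5 (2.27 ± 0.62, adjusted p = 0.114), with 181 CPM in Control 4. Tcf7, the transcription factor TCF-1, had the same order, 28.8, 27.2 and 31.1 CPM, then 46.5 and 55.7 CPM, then 140, 117 and 164 CPM (1.85 ± 0.54, adjusted p = 0.155). For Ltb and Tcf7 every RMA-KR library also lay above every RMA library, and neither was called.

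Several metabolic lists had medians below 0 with 0 genes called by edgeR. Over all 17097 genes tested, 2427 had an unadjusted p under 0.05. Of 42 proteasome genes 41 were below 0, with a median of -0.37, 16 at an unadjusted p under 0.05 and 0 called by DESeq2. Of 74 nuclear-encoded genes of oxidative phosphorylation 65 were below 0, with a median of -0.33, 14 at an unadjusted p under 0.05 and 0 called by DESeq2. Medians were -0.34 over 27 genes of glycolysis and the pentose phosphate pathway (6 at an unadjusted p under 0.05, 0 called by DESeq2) and -0.30 over 30 genes of cholesterol and fatty acid synthesis (3 and 1). Of 21 genes of MHC-I and peptide loading 20 were below 0, with a median of -0.38, 10 at an unadjusted p under 0.05 and 0 called by DESeq2; B2m itself was at 8600, 7132 and 6961 CPM against 4428, 4959, 4671, 4744 and 4709 CPM and was not called (-0.69 ± 0.18, adjusted p = 0.0901). The 84 cytosolic ribosomal protein genes had a median of 0.09 (-0.04 to 0.26 with 1 library left out), and their mean log2 level was 5.2, 4.92 and 4.83 in RMA 1 to 3. RMA-KR 1 and 2, at 4.63 and 4.49, lay below all RMA libraries, and RMA-KR 3, 4 and 5, at 5.42, 5.34 and 5.46, above them.

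**Figure D4:**
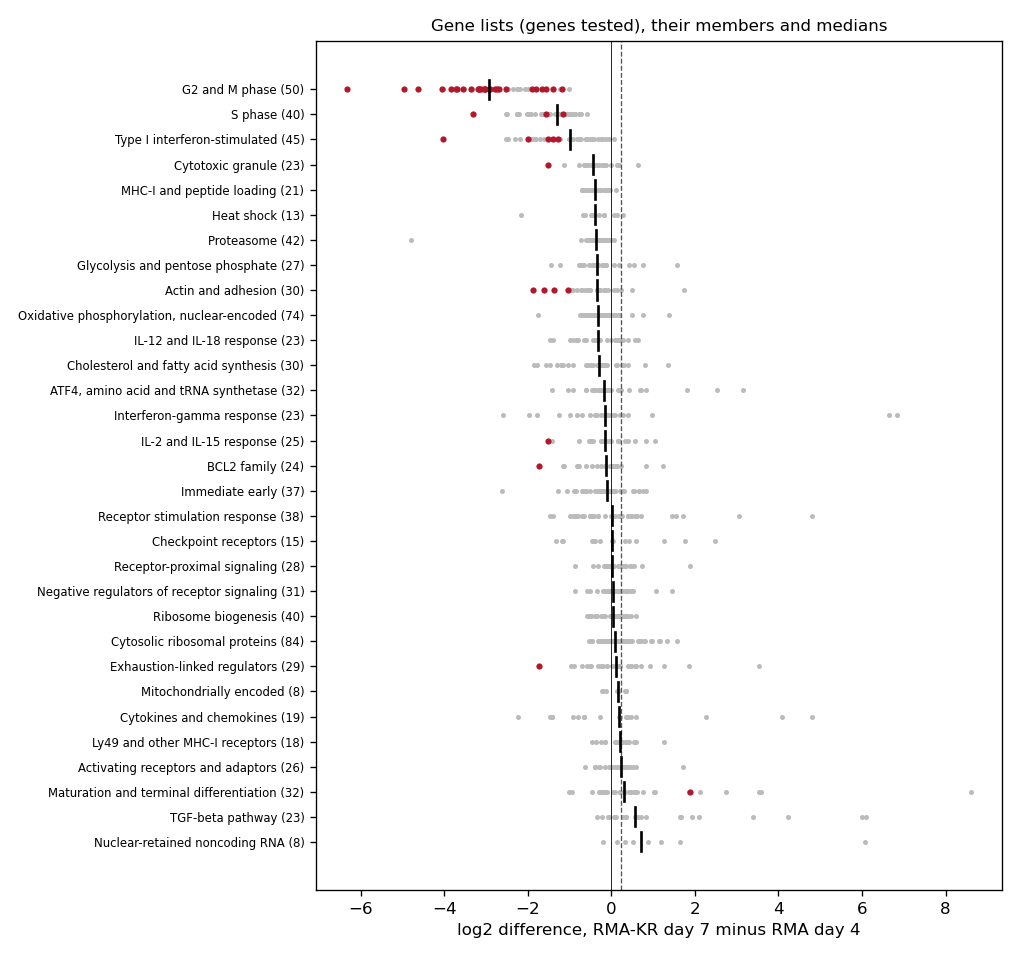
Each point is a gene of the list named on the left, with the number tested in brackets, at its log2 difference of RMA-KR day 7 minus RMA day 4; called genes are dark, the bar is the list's median and the dashed line is the median of all genes, 0.23. The G2 and M phase list has the lowest median, -2.92, followed by the S phase list, -1.29.

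Beside the other stages, G2 and M phase levels in RMA day 4 stood with the late groups and those in RMA-KR day 7 with control and day 2. Mean log2 levels over the G2 and M phase list were 3.54 ± 0.66 in 4 control libraries, 3.99 ± 1.24 and 4.13 ± 0.70 in RMA and RMA-KR at day 2, 6.84 ± 0.19 in RMA day 4, 3.95 ± 0.26 in RMA-KR day 7, and 6.77 and 6.42 in RMA day 9 and RMA-KR day 14. Over the S phase list RMA-KR day 7 lay between, at 5.32 ± 0.76 against 4.38 ± 0.18 in control, 4.39 in RMA-KR day 2 and 5.94 in RMA-KR day 14, with RMA-KR 3 above the last of these means. Plk1 averaged 143 ± 18.0 CPM in RMA day 4 and 8.52 ± 3.86 in RMA-KR day 7, beside 5.79 ± 5.37 in control, 97.1 in RMA day 9 and 94.1 in RMA-KR day 14. At the late stage RMA-KR and RMA gave 0 called genes by edgeR, with 1249 at an unadjusted p under 0.05. No other tool was run here for that pair. For late stages the paper reports genes that differed between the tumors by DESeq2, Tox among them. At day 2, when the tumors shared the day, 52 were called by edgeR (0.304%). Whether the intermediate difference itself departs from those at other stages was tested as a difference of differences. Against the late stage 0 genes were called by edgeR, with 1847 at an unadjusted p under 0.05 and 60 called by DESeq2, and Plk1, Kif22, Kif11, Incenp and Anln had the smallest p (adjusted p = 0.369). Against day 2, 22 genes were called (0.129%), 18 of them more negative at the intermediate stage, whereas DESeq2 with default settings called 281, of which 122 were more negative. The difference was -4.39 for Kif22 (adjusted p = 0.00121) and -4.55 for Kif11 (adjusted p = 0.0116), both lower in RMA-KR at the intermediate stage and at 1.23 and 0.84 at day 2. This count moved when single libraries were left out: it was 1, 10 and 170 without RMA day 2 libraries 1, 2 and 3, 39 and 8 without RMA-KR day 2 libraries 1 and 2, 13 without the third (6 of them more negative), 6, 2 and 3 without RMA 1, 2 and 3 of day 4, and 10, 24, 9, 3 and 3 without RMA-KR 1 to 5 of day 7. The genes tested changed as well, to 19671 to 20105 without a day 2 library.

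**Figure D5:**
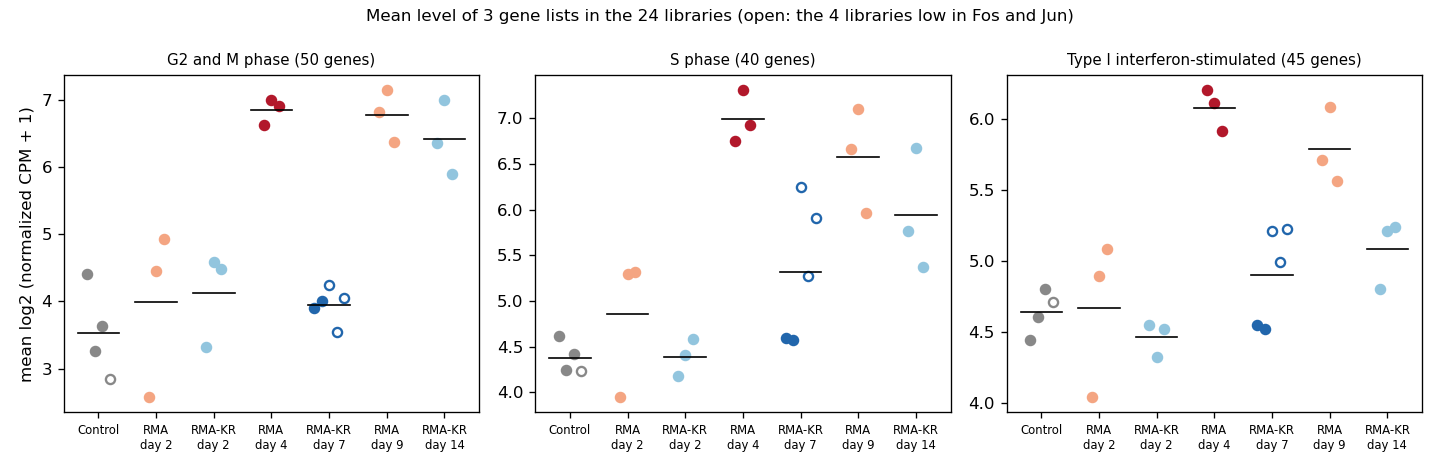
Mean log2 level (CPM plus 1) over the genes of 3 lists in each of the 24 libraries, by group, with a line at the group mean and open points for the libraries low in Fos and Jun. Over the G2 and M phase list RMA day 4 is at 6.62 to 6.99 and RMA-KR day 7 at 3.55 to 4.25.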

How the data were processed

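Spleen NK cells gave 24 libraries in 7 groups by the labels. Per the submitters' processing notes, reads were trimmed with cutadapt 1.10, cleared of ribosomal RNA with Bowtie2 2.2.8, aligned to mm10 with STAR 2.5.3a and counted with HTSeq 0.6.1p1; the notes also name DESeq2 1.16.1. The values the authors deposited and that were used here are raw counts of reads per gene, in 24 columns. Another 48 columns of values per library, and the authors' own comparisons (fold changes and p-values), were not used here.

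Software was edgeR 4.0.16, DESeq2 1.42.0 and limma 3.58.1 under R 4.3.3. The low-count filter was filterByExpr on the 7 groups, libraries were scaled with TMM, and the model held a mean for each group over the 24 libraries (robust quasi-likelihood test, Benjamini-Hochberg over 17097 genes). The SE of a log2 difference was derived from it and the F statistic. The totals of the 8 libraries, 8131589 to 14824109 counts, put the floor of 3 counts under 1 CPM.

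The comparison was added after the data were seen, and its members and gene lists were chosen with earlier results of these data known. Named genes are the 12 called genes with the largest difference in each direction (a mean of at least 5 CPM over the 8 libraries, groups that do not overlap), filled up to 8 by p where fewer than 5 were called, called members of the lists, genes the study measured by other means, and for each list described its most abundant members and those with the smallest p. Promoter sequences and their build are from RefSeq. Alternatives were DESeq2's size factors, DESeq2 with default settings and with betaPrior, limma voom with sample weights, other low-count filters, the 8 libraries alone, the replicate number as a block, each library left out, and RMA-KR 3, 4 and 5 or 1 and 2 left out. A term for the 4 libraries low in Fos and Jun was added after seeing the data. 1 called gene is not reported by name.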

Additional observations from a re-analysis of the deposited data

Results flagged for a closer look

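In groups of 4 or 5 libraries, 13 of 122 checked groups held a library far from the rest. The rule flags about 1 in 20 groups of normally distributed values. CPM need not be so distributed and related genes are not independent, so the share to be met by chance here is not known. Among the RMA-KR intermediate libraries, Ccnf in RMA-KR 5 was at 47.3 CPM with the next library at 11.9, Ttk in RMA-KR 3 was at 5.39 CPM with the next at 1.08, and the mitochondrial share of counts in RMA-KR 1 was 1.30% with the next at 1.08%. The other 10 were among the controls. Control 1 was highest for Birc5 (24.6 CPM), Cdc20 (46.0 CPM), Cenpa (68.9 CPM), Ect2 (36.6 CPM) and Top2a (103 CPM), and Control 3 for Ccnb1 (5.48 CPM), Ifi27l2a (6.00 CPM), Smc2 (77.6 CPM) and Usp18 (55.9 CPM). Control 4 was lowest for Jun, at 105 CPM with the next library at 815.

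For 12 of the genes named, the difference between RMA-KR and RMA itself differed between the intermediate stage and day 2 in the edgeR fit. The difference of the log2 differences was -4.39 for Kif22, -4.55 for Kif11, -2.66 for Cnot9, -1.07 for Rnh1, -6.71 for Zwilch, -1.96 for Xaf1, -2.29 for Racgap1, -4.69 for Kif20a, -7.37 for Anln, -1.95 for Lgals3, -4.01 for Plk1 and -4.26 for Birc5. Cnot9, Rnh1 and Zwilch, named for their small p, were at -0.74, -0.37 and -2.0 at the intermediate stage and at 1.92, 0.70 and 4.71 at day 2; Zwilch averaged 0.176 CPM in RMA at day 2, under the floor, so its value there depends on few counts.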

How the results depend on the processing

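All 86 called genes kept their sign under every alternative in which they were tested. Of the named genes that were not called, Jun (1.02), Gzma (0.193), Ccl3 (0.29) and Ifng (0.059) were among those that changed sign without RMA-KR 3, 4 and 5. Under edgeR with DESeq2's size factors 76 genes were called, 71 lower and 5 higher, and 75 were among the 86. Counts moved under other tools and filters. DESeq2 with default settings called 297 genes (134 lower, 163 higher), 60 against the late stage and 281 against day 2; betaPrior gave 175 (52 higher), and limma voom with sample weights 632 (305 lower, 327 higher). With no low-count filter 272 were called (204 lower, 68 higher); with 10 counts in every library 21 were higher and 41 differed from day 2, and with only the 8 libraries 11 were higher. The adjusted p alone called 9 higher. The replicate number as a block gave 42 (38 lower, 4 higher) and 1 against day 2; replicate numbers do not pair the groups (correlations of 0.01, -0.04 and -0.02 between libraries with the same number, none of them the best match). Without RMA-KR 3, 4 and 5, 46 were lower and 18 higher, and without RMA-KR 1 and 2, 10 were higher. With a term for the 4 libraries low in Fos and Jun, chosen after seeing the data, 53 were called (37 lower, 16 higher), 34 of them among the 86. Leaving out each library gave 34 to 70 called genes (32 to 62 lower, 1 to 8 higher), 0 to 1 against the late stage and 1 to 170 against day 2. In these fits 16490 to 20280 genes passed the filter. Of 49 called genes named, 23 stayed called without each library in turn. DESeq2 with betaPrior, limma voom and the unfiltered table were run for the comparison of the 8 libraries and not for the differences between stages. The cause of these shifts was not tested. Counting error was small beside the spread between libraries: pairs of libraries in a group differed 19.4 to 115 times more than counting error gives (chi-square per degree of freedom).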

Other observations

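Few marker genes of tumor cells could be told from NK cell transcripts. Of the 16 T cell and T lymphoma markers 8 averaged under 1 CPM, and 0 were called by edgeR, with 1 at an unadjusted p under 0.05, and 0 by DESeq2. Red blood cell markers summed to 581 and 479 CPM in RMA and RMA-KR, nearly all of it Car2. Haemoglobin genes were near 0: Hbb-bs was at most 0.441 CPM and Hbb-bt at most 0.347 CPM in the 8 libraries. Platelet markers summed to 1.43 and 5.79 CPM, and stroma and endothelium markers to 251 and 226 CPM, mainly Pecam1.

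Genes of the TGF-beta pathway had the highest median of the lists of pathways, 0.56 over 23 genes, or 0.36 when a group wholly under the floor was given the level of the floor, and 19 were above 0. Over all genes tested these medians were 0.23 and 0.16. Of the 23, 0 were called by edgeR, by DESeq2 or by limma voom, with 3 at an unadjusted p under 0.05 in edgeR. The noncoding RNAs retained in the nucleus had a median of 0.70 over 8 genes (0.32 to 1.09 with 1 library left out). Heat shock genes had a median of -0.38 over 13 genes; their summed level was 5271, 6305 and 5421 CPM in RMA 1 to 3 and 3776, 4694, 4697, 3781 and 3963 CPM in RMA-KR 1 to 5, so that the groups did not overlap. Among cytokine and chemokine genes, 10 of 19 were above 0.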
